A study of Mus musculus with 13 samples.

Results

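The 10 imprinted genes of mouse chromosome 6 followed here were Peg10, Sgce, Ppp1r9a, Calcr, Tfpi2, Asb4, Mest, Copg2, Klf14 and Nap1l5. They were taken by name from a promoter count table of 55232 genes, in which they hold 26 of 77489 promoter rows, and joined to every region called for H3K27me3 that overlaps one of those rows. That gave 13 of 57909 regions, with all 10 genes having at least 1. H3K27me3 is a repressive histone mark, measured by ChIP-seq in mouse embryonic stem cells (ESCs). The male CAST/B6 hybrid cells carry a recombination cassette (RMCE) at Rosa26, itself on chromosome 6. All groups had 3 days of doxycycline, and what it induced is not stated in the labels. Wild type (WT, 5 libraries) was compared with a double knockout of SAFB1 and SAFB2 (DKO, 4 libraries), and total H3 was measured in 2 WT and 2 DKO libraries. The DKO stands on 2 clones, with clone 4 giving only H3K27me3 replicate 1 and clone 13 all other DKO libraries. By the stem of their library names, WT replicates 1, 4 and 5 belong together and WT replicates 2 and 3 each stand alone. Nothing in the labels says that replicates were separate cultures, so the p-values measure the spread between libraries, which may be technical.

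An imprinted gene is read mainly from the copy inherited from one parent. DNA methylation laid down in one germ line marks an imprinting control region, and in the zygote and in ESCs the zinc finger protein ZFP57 holds that methylation on a short methylated motif. H3K27me3, written by Polycomb repressive complex 2, is known to lie on the unmethylated copy of several such domains and over the silent promoters of tissue-restricted genes in ESCs. On chromosome 6 the paternally expressed genes Peg10 and Sgce share a bidirectional promoter, next to Calcr, Tfpi2, Ppp1r9a and Asb4, which are maternally expressed in some tissues. Further along, paternally expressed Mest lies beside Copg2 and Klf14, and Nap1l5 is a paternally expressed gene inside an intron of Herc3. The parental copies of these genes could differ, but the tables give 1 count for each library and region. Whether reads of both alleles entered it is not stated in the labels. Every library name carries the tag b6, which the labels do not explain.

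RefSeq promoter windows (assembly GRCm38.p6, 250 bases before to 50 bases after a start site) were available for 7 of the 10 genes, in 14 windows. Windows for Peg10, Sgce and Klf14 were not used here. The windows were searched on both strands for TGCCGC, the ZFP57 hexamer, which reads GCGGCA when it lies on the other strand. It occurred in 5 of the 14 windows, or 35.7%, against 11.6% of 32851 RefSeq windows of the same length, and the 5 belong to Mest (2 overlapping windows), Calcr, Copg2 and Nap1l5. The member windows held a median of 11 CG pairs, against 7 over all windows. The 250 bases upstream of the start are shown for the first and second of the 3 start sites of Mest, the last lying 3 bases from the second, where 1 WT library stood apart from the rest, and for Nap1l5 and Calcr, which carry the hexamer and a marked region. They lie at chr6:30733256-30733505 and chr6:30737800-30738049 (plus strand), chr6:58907127-58907376 and chr6:3763624-3763873 (minus strand). Each runs 5′ to 3′ in lower case, with the hexamer in capitals.

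Mest first start: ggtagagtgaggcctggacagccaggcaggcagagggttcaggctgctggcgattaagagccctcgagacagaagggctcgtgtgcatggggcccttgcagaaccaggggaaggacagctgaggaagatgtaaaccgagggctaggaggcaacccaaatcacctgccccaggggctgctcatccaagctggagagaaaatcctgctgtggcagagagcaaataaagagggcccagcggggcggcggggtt
Mest second start: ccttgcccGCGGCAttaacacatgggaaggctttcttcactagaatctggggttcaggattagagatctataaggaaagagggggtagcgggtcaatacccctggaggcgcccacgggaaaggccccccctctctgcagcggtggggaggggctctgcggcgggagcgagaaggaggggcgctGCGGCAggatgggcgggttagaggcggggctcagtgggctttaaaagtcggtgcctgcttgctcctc
Nap1l5: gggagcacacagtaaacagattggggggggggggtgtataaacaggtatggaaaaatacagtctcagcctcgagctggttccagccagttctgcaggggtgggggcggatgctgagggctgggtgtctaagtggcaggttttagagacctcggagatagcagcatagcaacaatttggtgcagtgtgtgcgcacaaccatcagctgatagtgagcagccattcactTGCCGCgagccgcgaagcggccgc
Calcr first start: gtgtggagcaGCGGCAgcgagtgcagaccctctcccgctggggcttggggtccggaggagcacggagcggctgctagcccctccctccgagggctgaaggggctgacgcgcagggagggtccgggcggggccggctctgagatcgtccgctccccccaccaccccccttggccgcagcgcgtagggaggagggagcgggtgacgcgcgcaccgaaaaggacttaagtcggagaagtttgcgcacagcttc

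The second Mest start held 2 hexamers, the first of them 242 bases and the second 67 bases upstream of the start, while the first Mest start held none. Nap1l5 and Calcr each held 2 in the full window, of which 1 lies in the bases shown. The Calcr start labelled first, at 3763623, is first by coordinate among its RefSeq windows. On the minus strand its start at 3764713 lies further upstream, and that window held 0 hexamers. A match is a string of letters and not a measured binding site.

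The members' regions ranged from barely marked to among the most marked, between percentiles 2.48 and 97.8 of all tested regions per kilobase in WT. The 2 lowest are on the authors' list of DKO-specific regions and so low in WT by selection. Among the members' regions on the authors' shared list the lowest percentile was 16.3. Levels of regions are given as CPM, the counts in a region over 1000000 counts after TMM scaling, and per kilobase (kb) where regions of different length are set side by side. In WT the Klf14 region, around the promoter of a single-exon Krüppel-like transcription factor gene, was highest at 24.2 ± 1.68 CPM per kb (SD, n = 5). The Calcr region, at the calcitonin receptor gene, followed at 16.6 ± 1.20 CPM per kb, and the shared Peg10 and Sgce region at 14.2 ± 0.76 CPM per kb. Klf14 stood above Calcr in every WT library, and the lowest Calcr library (15.1) stood above the highest Peg10 and Sgce library (14.8). Mest (12.2 ± 3.24), the first Asb4 start (12.01 ± 2.23) and Nap1l5 (11.9 ± 0.95 CPM per kb) could not be ordered within their spread. The remaining 7 regions lay lower, from 9.57 CPM per kb at Tfpi2, an inhibitor of serine proteases, to 5.54 CPM per kb at the second Asb4 start. In DKO, Klf14 was again highest, at 20.4 ± 1.34 CPM per kb (SD, n = 4), and Mest (15.9 ± 0.98), Peg10 and Sgce (15.8 ± 0.40) and Calcr (15.7 ± 0.79 CPM per kb) stood level within their spread. As a check of the mark, the best promoter row of 10 genes known to carry it in ESCs (Hox genes, Gata6 and others) had a median of 127 CPM in WT, against 2.45 CPM for 10 genes active in ESCs, although overlapping rows hold few reads for either list. Among the members the highest promoter row was Klf14, at 336 ± 46.7 CPM (SD, n = 5).

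**Figure D1:**
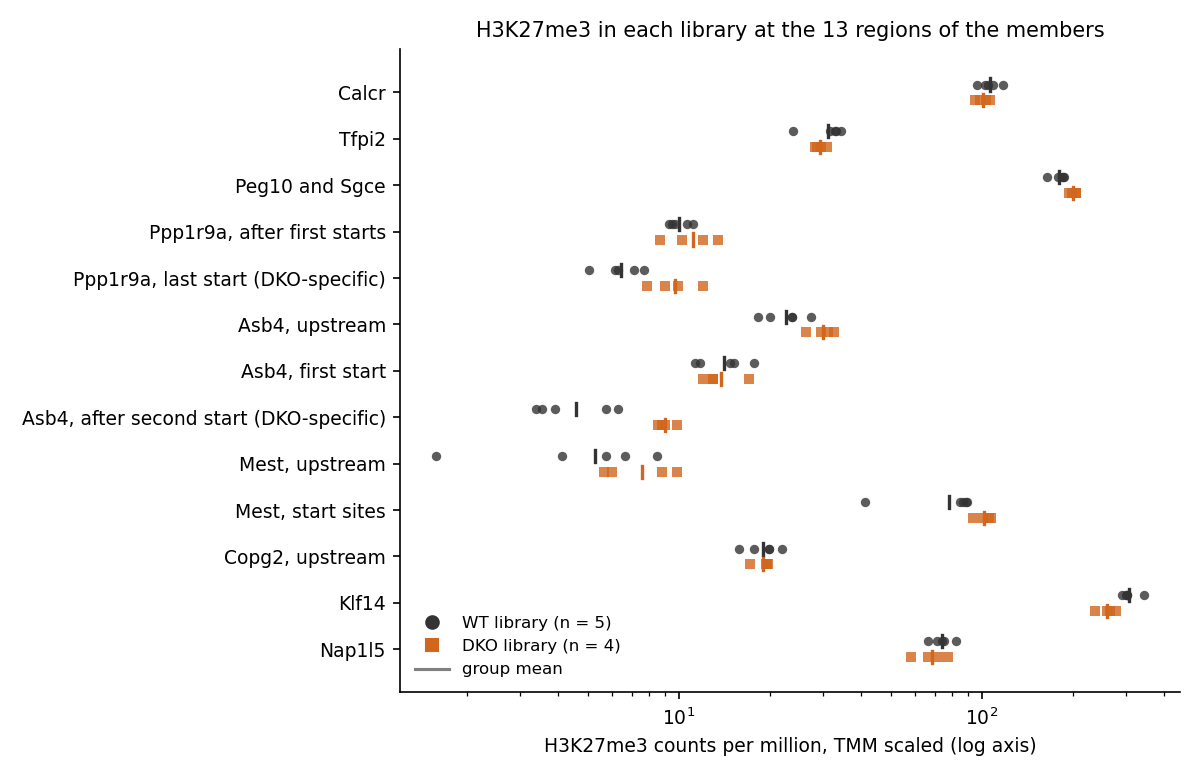
H3K27me3 level (horizontal log axis, CPM) in each of 5 WT (circles) and 4 DKO (squares) libraries at the 13 regions, with short bars at group means. WT replicate 3 is the single low circle at both Mest regions, and at Klf14 all DKO squares lie below the WT circles.

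The first comparison asked whether H3K27me3 at these genes differs between DKO and WT. Of the 13 regions 2 rose and 1 fell by edgeR's quasi-likelihood test at an adjusted p under 0.05. Over all 40418 regions tested, 2.16% rose and 1.88% fell, 872 and 758 in number. Scaling moves that split, to 1418 against 460 with library totals and 527 against 889 with TMM from regions off chromosomes 6 and 11. The Mest region rose, as did a region after the second start of Asb4 that the authors listed as DKO-specific, and the region that fell was Klf14. DESeq2 called 1 of the 13, the fall at Klf14, and 1.91% of all regions. It gave no adjusted p for the DKO-specific Asb4 region. In 6 of the 13 the unadjusted p was under 0.05, against 19.5% of all regions. The median log2 fold change over the 13 was 0.13, against -0.02 over all regions and -0.18 over the 15714 tested on chromosome 6. Over the 192 tested within 500 kb of a member it was -0.01, but these neighbours differed by domain. Their median was 0.14 around Peg10 and the genes next to it (65 tested), close to that of the members. It was 0.04 around Mest, Copg2 and Klf14 (94 tested) and -0.27 around Nap1l5 (33 tested).

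Mest, also called Peg1, encodes a hydrolase-like protein named for its expression in mesoderm, and its promoter lies in an imprinting control region that is methylated on the maternal copy. Its region spans 6407 bp (chr6:30732716-30739122) and holds all 3 annotated start sites. In WT replicates 1 to 5 it stood at 89.2, 86.6, 41.0, 88.9 and 84.5 CPM. In DKO replicates 1 to 4 it stood at 101, 106, 93.4 and 107 CPM. Every DKO library lay above every WT library, which was so for 4 of the 13 regions against 3.36% of all tested. Of those 4, 2 are on the authors' DKO-specific list and so higher in DKO by selection. At Mest, WT replicate 3 was far below the other WT libraries. The fitted log2 fold change was 0.37 (SE 0.10, edgeR adjusted p = 0.0201). Without WT replicate 3 the log2 fold change was 0.22 (edgeR adjusted p = 0.203), so the call does not hold without that library, although the 4 remaining WT libraries still lay below the DKO libraries. It also ended without DKO replicate 2 (0.36) or 4 (0.35), with TMM off chromosomes 6 and 11 (0.33) and with DESeq2 (0.39).

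WT replicate 3 was also low at some regions around Mest, with the largest deficit in reads at the Mest region itself. Its 78 counts there gave 41.0 CPM, with an exact Poisson interval at 95% from 32.4 to 51.2 CPM that covers counting error only. Its ratio to the mean of the 4 other WT libraries was 0.47. From 120 kb upstream to 300 kb downstream, 20 other regions had a mean of at least 8 CPM in those 4 libraries, and there the ratio ran from 0.64 to 1.39 with a median of 0.95. It was 0.80 at Copg2 and 0.93 at Klf14. The other 26 of the 47 regions in that span lie under 8 CPM, rest on few reads, and had ratios from 0.25, at the small region upstream of Mest, to 1.45. Of these, 5 consecutive regions 57.6 to 22.7 kb upstream of the first start had WT replicate 3 below every other library, at ratios from 0.32 to 0.79, on 2 to 9 counts of that library each. That stretch was picked after its values were seen. Of all 47 regions, 12 had WT replicate 3 below every other library, the Mest region among them. The low values were thus not limited to Mest. Of 2084 regions within 1.5-fold of the same mean level, 0 had a lower value for this library relative to the median of the other WT libraries. In 36 regions of at least 8 CPM at imprinted genes of other chromosomes the ratio ran from 0.75 to 2.04, with a median of 1.01. The total H3 libraries carry no label that ties them to WT replicate 3.

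**Figure D2:**
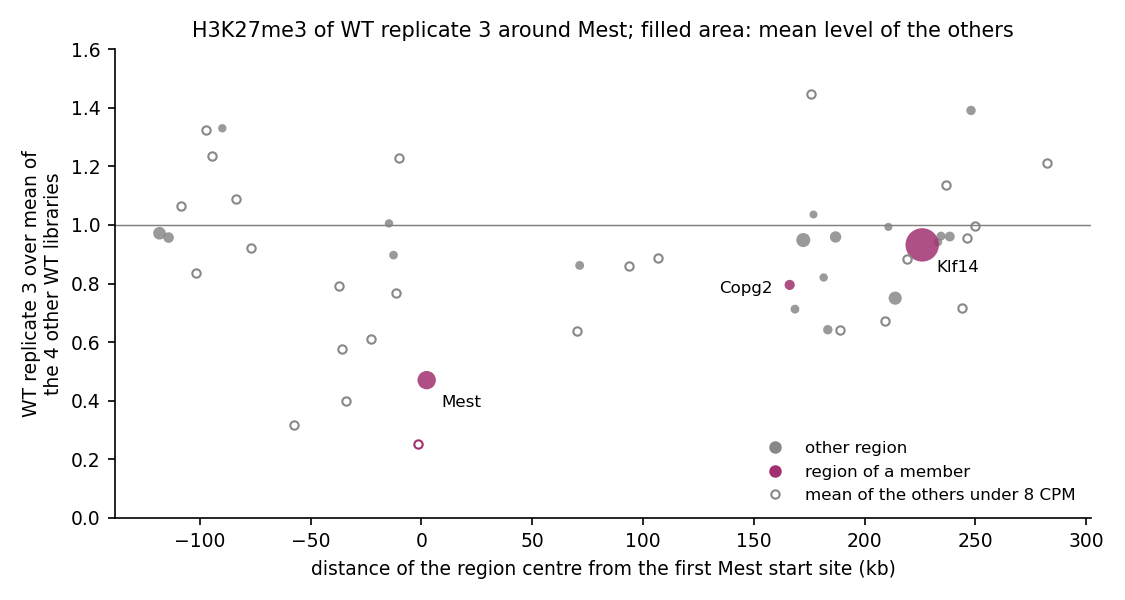
Ratio of WT replicate 3 to the mean of the 4 other WT libraries (vertical axis) at all 47 regions, by distance of the region centre from the first Mest start (horizontal axis, kb). The area of a filled point follows the mean level, and open points have a mean under 8 CPM in the 4 other libraries. The Mest region lies at 0.47, the other 20 filled points lie from 0.64 to 1.39, and 5 open points 57.6 to 22.7 kb upstream lie from 0.32 to 0.79.

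The smaller region upstream of Mest, 683 bp long (chr6:30731849-30732531), and the Mest promoter row ordered the libraries in part alike. At the small region WT replicate 3 held 1.58 CPM, from 3 counts, and the other WT libraries held 4.13 to 8.45 CPM. The DKO libraries there held 5.68 to 9.85 CPM, overlapping WT, and the region did not pass (edgeR adjusted p = 0.432). The promoter row around the first Mest start, of which 912 of 3001 bases belong to no other row, stood at 20.5, 15.1, 4.89, 14.3 and 13.9 CPM in WT replicates 1 to 5. In DKO replicates 1 to 4 it stood at 24.1, 17.7, 17.5 and 14.2 CPM. WT replicate 3 was again lowest, and the groups overlapped (edgeR adjusted p = 0.662). This row shares reads with both regions and is no independent measure of them.

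At Klf14 the mark fell by a small amount. Its region spans 12693 bp (chr6:30953143-30965835). In WT replicates 1 to 5 it stood at 298, 344, 290.0, 301 and 301 CPM. In DKO replicates 1 to 4 it stood at 277, 259, 236 and 265 CPM. Every DKO library lay below every WT library, the only one of the 13 regions with that order, against 3.4% of all tested. The log2 fold change was -0.24 (SE 0.07, edgeR adjusted p = 0.0268), or 0.85 of the WT level. The call ended when any of WT replicates 2 and 5 and DKO replicates 2 and 3 was left out (log2 fold change from -0.25 to -0.19) and with library totals (-0.18). The Klf14 promoter row showed the same direction with an unadjusted p under 0.05, at a log2 fold change of -0.22 (edgeR adjusted p = 0.435), with WT replicate 2 highest at 416 CPM. It lies inside the region and shares its reads. A shift in this direction was not particular to Klf14. Over the tested regions of chromosome 6 the median log2 fold change was -0.18. The 9 tested rows of the 10 genes known to carry the mark in ESCs had a median of -0.19, and 1 of them fell. Copg2, which encodes a coatomer subunit and overlaps the end of Mest, had its region upstream of the start (chr6:30898476-30900919), in the neighbouring gene Tsga13. That region stood at 19.04 ± 2.37 CPM in WT (SD, n = 5) and 18.9 ± 1.21 CPM in DKO (SD, n = 4), a difference smaller than the spread between libraries.

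Within the libraries whose names carry Old or New, 2 WT and 2 DKO, the Mest region changed by 0.22 and Klf14 by -0.26 on the log2 scale. Within the other 3 WT and 2 DKO libraries the values were 0.50, a set that holds WT replicate 3, and -0.22. None of these passed. With only the 3 WT libraries of one name stem, which leaves out WT replicates 2 and 3, Mest changed by 0.21 and Klf14 by -0.22, and neither passed. Directions held at both regions in each of these fits. Without DKO replicate 1, the library of clone 4, both calls held, at 0.38 and -0.27.

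**Figure D3:**
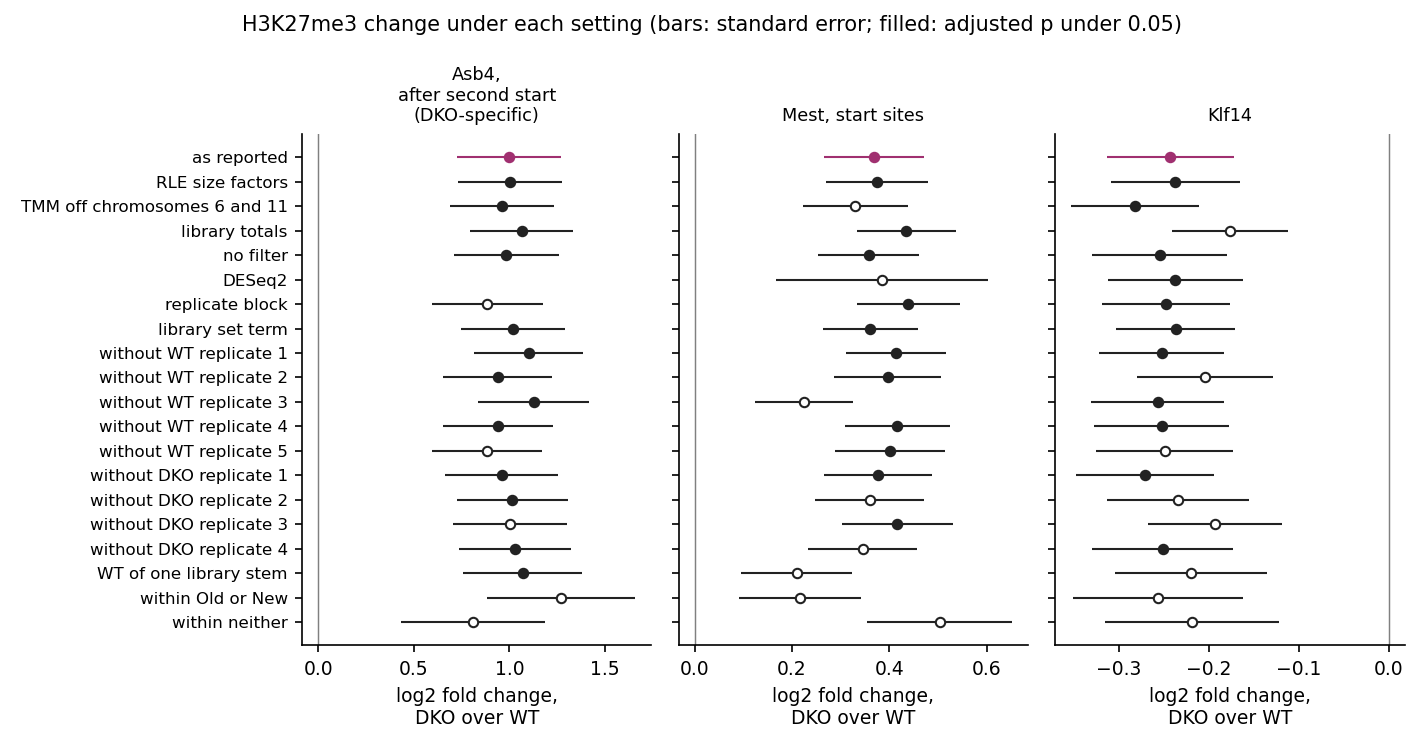
Log2 fold change of H3K27me3 (horizontal axes, DKO over WT, bars show the standard error) at the 3 regions that passed, under each setting (vertical axis); filled points had an adjusted p under 0.05. Every value keeps its side of 0, and Mest drops from 0.37 to 0.22 without WT replicate 3. For the DKO-specific Asb4 region DESeq2 gave no adjusted p.

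In the Peg10 domain the region over the shared promoter did not pass the test. Peg10 derives from a retrotransposon and is needed in the placenta, and Sgce encodes epsilon-sarcoglycan. Their 9 promoter rows overlap so closely that 7 had no base of their own, and the rows held at most 16 counts over 9 libraries, because reads that overlap several rows were not counted. The region that holds all 9 start sites (chr6:4736254-4748956, 12703 bp) also reaches far to one side of them, so no value isolates the promoter. It stood at 184, 187, 164, 179 and 186 CPM in WT replicates 1 to 5. In DKO replicates 1 to 4 it stood at 199, 195, 205 and 205 CPM. All DKO libraries lay above all WT libraries, yet the log2 fold change of 0.16 (SE 0.08) had an edgeR adjusted p of 0.235. With library totals it was 0.23 and passed (edgeR adjusted p = 0.043).

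Asb4, which encodes an ankyrin repeat protein with a SOCS box, had 3 regions, of which 1 passed the test. The region after its second start (chr6:5390529-5391353) is on the authors' DKO-specific list, so it is higher in DKO by selection. It stood at 5.74, 3.54, 6.32, 3.90 and 3.38 CPM in WT replicates 1 to 5 and at 9.85, 8.78, 9.01 and 8.52 CPM in DKO replicates 1 to 4. The groups did not overlap, and the log2 fold change was 1.00 (SE 0.27, edgeR adjusted p = 0.0152). Among all tested regions of that list 5.4% rose. The call ended with a replicate block (0.89), without WT replicate 5 (0.88) and without DKO replicate 3 (1.00). It also ended within the libraries with Old or New (1.27) and without (0.81). DESeq2 gave no adjusted p for the region, so it did not test the call. The region upstream of the first start (chr6:5379049-5382145), on the shared list, stood at 27.4, 23.6, 20.0, 18.3 and 23.7 CPM in WT replicates 1 to 5. In DKO replicates 1 to 4 it stood at 32.5, 26.4, 31.0 and 29.5 CPM. WT replicate 1 lay above DKO replicate 2, and the log2 fold change of 0.41 (SE 0.16) did not pass (edgeR adjusted p = 0.119), although it did without WT replicate 1 (0.48, edgeR adjusted p = 0.037). At the first start itself (chr6:5382919-5384095) the level was 14.1 ± 2.62 CPM in WT (SD, n = 5) and 13.7 ± 2.24 CPM in DKO (SD, n = 4).

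Ppp1r9a, which encodes the actin-binding protein neurabin, had a DKO-specific region at its last start (chr6:4905222-4906333), again higher in DKO by selection. It stood at 6.18, 7.66, 6.32, 5.07 and 7.10 CPM in WT replicates 1 to 5 and at 11.99, 7.86, 9.01 and 9.94 CPM in DKO replicates 1 to 4. The groups did not overlap, and the log2 fold change of 0.59 (SE 0.25) did not pass (edgeR adjusted p = 0.152). The shared region before it (chr6:4903491-4904787) stood at 10.1 ± 0.80 CPM in WT and 11.1 ± 2.09 CPM in DKO. Calcr (chr6:3760733-3767137) stood at 106 ± 7.67 CPM in WT and 101 ± 5.04 CPM in DKO, and Tfpi2 (chr6:3967246-3970491) at 31.0 ± 4.15 and 29.3 ± 1.17 CPM. Neither differed beyond the spread between libraries.

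Nap1l5, an intronless gene related to nucleosome assembly proteins, is the only member outside these domains. Its region (chr6:58904754-58910938) stood at 66.7, 82.5, 75.3, 71.0 and 74.1 CPM in WT replicates 1 to 5. In DKO replicates 1 to 4 it stood at 77.5, 66.6, 58.4 and 71.7 CPM. The groups overlapped, with the lowest and the second highest of the 9 libraries both in DKO, and the region did not pass (edgeR adjusted p = 0.605).

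At promoter rows none of the members passed. Of the 26 rows 10 had enough counts to be tested, at 8 genes, and 13 held 0 counts in all 9 libraries, 11 rows having no base of their own. By edgeR 0 of the 10 passed, against 0.628% of all 32647 rows tested, 3 had an unadjusted p under 0.05 against 10.2% of all rows, and DESeq2 called 0 of the 10 and 0.49% of all rows. The 3 were the second Asb4 row, from 27.3 ± 8.39 to 38.0 ± 6.46 CPM (log2 fold change 0.49, edgeR adjusted p = 0.311), the last Ppp1r9a row, from 26.1 ± 4.24 to 34.8 ± 4.58 CPM (0.43, edgeR adjusted p = 0.41), and Klf14. No tested member row had groups that did not overlap, against 3.34% of all rows. The median log2 fold change of the 10 rows was 0.19, against -0.01 over all rows, 0.04 over 79 rows of other genes within 500 kb and -0.09 over 2587 rows of chromosome 6. Tested rows of Nap1l5 (104 ± 13.8 and 104 ± 17.1 CPM), Tfpi2 (65.7 ± 8.77 and 64.9 ± 3.29 CPM) and the first Calcr row (42.0 ± 10.6 and 41.3 ± 3.44 CPM) had nearly the same mean in WT and DKO.

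The genes between the members did not pass either. Of 79 tested rows of other genes within 500 kb of a member, 0 passed by edgeR and 10 had an unadjusted p under 0.05. Among those of smallest p were Gm20714 (log2 fold change 0.48, edgeR adjusted p = 0.361) and Gm20672 (-0.61, edgeR adjusted p = 0.387). The genes listed for the 3 domains, among them Pon2 at 85.8 ± 9.46 CPM in WT and 81.2 ± 13.0 CPM in DKO and the Nap1l5 host gene Herc3 at 34.6 ± 7.05 and 36.8 ± 4.00 CPM in its first row, had 12 tested rows, of which 0 passed by edgeR. Of 192 tested regions within 500 kb, 1 rose and 0 fell. It lies at chr6:4554771-4555745, on the DKO-specific list, with a log2 fold change of 1.06 (edgeR adjusted p = 0.0126).

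Total H3, the measure of histone occupancy, differed at no tested member region by more than its test could call. The Mest region held 106 and 136 CPM of total H3 in WT replicates 1 and 2 and 94.6 and 110 CPM in DKO replicates 1 and 2, so the groups overlapped. At Klf14 it held 221 and 190.0 CPM in WT and 252 and 204 CPM in DKO, again overlapping. The groups did not overlap at Copg2, with 38.9 and 51.3 CPM in WT and 28.9 and 28.1 CPM in DKO (log2 fold change -0.67, edgeR adjusted p = 0.812). Nor did they overlap at Nap1l5, Peg10 and Sgce, the region upstream of Asb4 and the shared Ppp1r9a region. How often this order occurs over all regions was not counted, so nothing about these genes is read from it. Of 9 member regions with enough counts 0 passed by edgeR, against 0.0211% of 18938 regions, 0 had an unadjusted p under 0.05 against 6.17%, and DESeq2 called 0. With 2 libraries a group these values are coarse, resting on 36 to 69 counts per library at Mest.

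The change in H3K27me3 beyond that in total H3 was tested as an interaction over all 13 libraries. Of the 13 member regions 0 passed by edgeR, against 0.00184% of 54290 regions, and 3 had an unadjusted p under 0.05 against 6.74%. These were the region upstream of Asb4 (log2 difference 0.98, SE 0.39, edgeR adjusted p = 0.646), Mest (0.58, SE 0.25, edgeR adjusted p = 0.664) and Klf14 (-0.41, SE 0.18, edgeR adjusted p = 0.666). Total H3 at the upstream Asb4 region was 60.6 and 39.5 CPM in WT and 34.2 and 31.8 CPM in DKO. All 3 had the sign of their H3K27me3 change. The count of 3 rests on single libraries. It was 1 without WT total H3 replicate 2 or without DKO total H3 replicate 1, and 2 without DKO total H3 replicate 2. The count was also 2 without WT H3K27me3 replicate 3, the low library at Mest, and 2 with only the H3K27me3 libraries named Old or New.

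**Figure D4:**
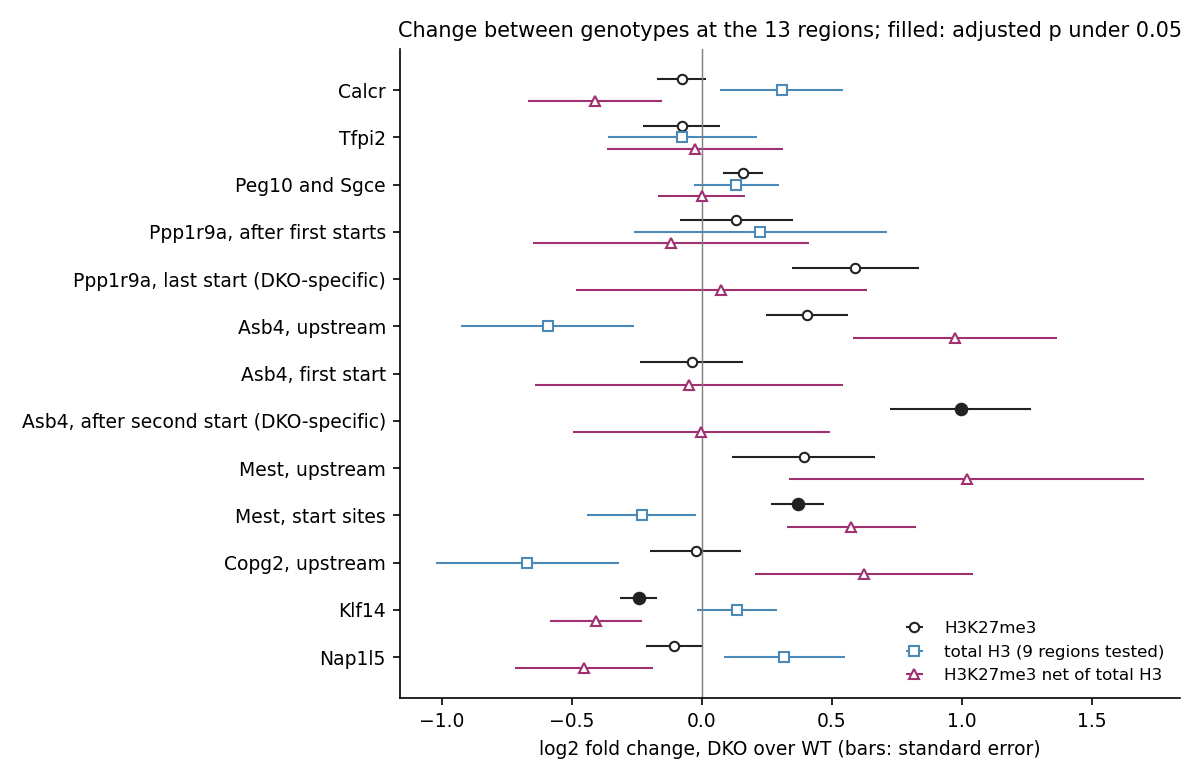
Log2 fold change between DKO and WT (horizontal axis, bars show the standard error) at the 13 regions (vertical axis) for H3K27me3 (circles), total H3 (squares, 9 regions tested) and H3K27me3 net of total H3 (triangles). Filled symbols had an adjusted p under 0.05, which holds for H3K27me3 at Mest, Klf14 and the DKO-specific Asb4 region.

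The members sit on a chromosome that held a large share of the called regions. Chromosome 6 held 24049 of the 57909 regions, or 41.5%, and 18.4% to 24.3% of region counts in WT against 19.4% to 22.1% in DKO. Of its 15714 tested regions 16 rose and 314 fell. Mest and the DKO-specific Asb4 region are among the 16, and Klf14 is among the 314. On other chromosomes, 51 of 52 listed imprinted genes had a promoter row. Of 40 rows tested 0 rose and 1 fell, the row of Kcnk9, a maternally expressed potassium channel gene, from 428 to 323 CPM (log2 fold change -0.41, edgeR adjusted p = 0.0204). At their 39 tested regions 2 rose and 8 fell, with a median of -0.11, against 0.13 at the members. Regions fell at Dio3, Kcnk9, Igf2r, Sfmbt2, Gnas, Peg12, Rasgrf1 and Mkrn3, by log2 fold changes from -0.61 at Gnas to -0.22 at Dio3. They rose at H19 (0.69) and at Peg3 with Usp29 (0.96). The larger Gnas regions, at 290 and 216 CPM in WT, did not pass (-0.11, edgeR adjusted p = 0.366, and 0.03, edgeR adjusted p = 0.858). Nor did the other H19 region (0.32, edgeR adjusted p = 0.448). The Mkrn3 region is on the WT-specific and the Peg3 region on the DKO-specific list, so their directions follow from selection. The difference between the 2 medians was not tested.

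The member row with the highest level was Klf14. The 3 rows of other genes whose log2 CPM followed it most closely over the 9 libraries were Gm18913 on chromosome 6 (Pearson r = 0.96), Dmrtc2 on chromosome 7 (r = 0.96) and Gm22151 on chromosome 8 (r = 0.95). These are the highest of all tested rows over 9 points that share library and depth, and are given as a description.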

How the data were processed

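The authors deposited raw read counts per promoter row and per region, with no normalization. Promoter counts were made with featureCounts 2.0.3 without strand, per the file headers, and reads over more than 1 row were not counted. Rows span 3001 bp, 2000 bp of them upstream of a start site. Build mm10 and the tools featureCounts, Subread, bedtools, MACS2 and Bowtie2 appear without roles, per the submitters' processing notes. The WT, DKO and H3 tables hold the same regions, and the sources used here do not say how these were called. The other deposited values are the region coordinates of the shared, WT-specific and DKO-specific lists, which carry no score.

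Counts were tested with edgeR 4.0.16 (quasi-likelihood F test, two-sided, TMM, filterByExpr with minimum count 10 and total 15, Benjamini-Hochberg over all rows or regions tested, adjusted p under 0.05) in R 4.3.3. DESeq2 1.42.0 was an alternative. CPM are counts over 1000000 counts in tested rows or regions after TMM scaling, with untested rows on the same scale, separately for each antibody. The SE is the log2 fold change divided by the root of F. Promoter rows held 798466 to 1427771 counts per library, regions 1818647 to 3134799 for H3K27me3 and 525847 to 736566 for total H3. Left out were 38 promoter rows, 37 of chromosome M and 1 longer than 100000 bp. The tests were checked on simulated counts. Neighbours lie within 500 kb of a member row. All members are named, neighbours and imprinted genes of other chromosomes where they passed or else the 3 of smallest p, and for likeness the 3 rows of highest r. One neighbour that this rule names is not reported here. The members and lists were chosen with earlier results of these data known, and the Mest surroundings were chosen for display after their values were seen. Alternatives varied scaling, filter, tool, replicate block, library set and the libraries used, and were listed item by item for members with an unadjusted p under 0.05. Figures were drawn with matplotlib 3.10.9 in Python 3.11.15.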

Additional observations from a re-analysis of the deposited data

Results flagged for a closer look

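In groups of 4 or 5 libraries, 46 sets of member values were searched for a library that stands apart from the rest of its group, and 6 were found, where chance flags about 1 in 20 groups. At the Mest region WT replicate 3 was lowest at 41.0 CPM. At the Klf14 region WT replicate 2 was highest at 344 CPM, and at the Klf14 promoter row the same library was highest at 416 CPM, from overlapping reads. At the Tfpi2 region WT replicate 1 was lowest at 23.8 CPM. DKO replicate 1, the only library of clone 4, was lowest of DKO at the Copg2 region at 17.1 CPM and at the first Calcr promoter row at 36.2 CPM.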

How the results depend on the processing

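Member regions called numbered 3, and 1 with DESeq2, 1 with WT libraries of one name stem, 0 within the libraries with Old or New and 0 within the others. Leaving out 1 library gave 1 to 4. The log2 fold changes kept their sign under every alternative run for the members with an unadjusted p under 0.05, those at promoter rows passed in none, and Mest, Klf14 and the DKO-specific Asb4 region lost their calls as given above. For the other members 0 of 133 promoter, 133 region, 72 total H3 and 170 net estimates passed. The sign changed in 24, 11, 2 and 32 of these.

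Over all promoter rows 205 were called, against 389 with a library set term, 134 with no filter, 90 with WT of one stem, 57 within Old or New, 22 within the others and 50 to 253 with 1 library left out. Over all regions 1630 were called, against 770 with DESeq2, 879 with WT of one stem, 692 within Old or New, 146 within the others and 623 (without DKO replicate 3) to 2882 (without WT replicate 1) with 1 library left out. For total H3 4 were called, against 2 with no filter, 0 with DESeq2 and 0 to 4 with 1 library left out, and net of total H3 1 was called, against 2 within Old or New and 0 to 2 with 1 library left out. The cause of these shifts was not tested.

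Same-numbered WT and DKO libraries did not deviate together (r from -0.03 to 0.07), so the numbers were not taken to pair them. By library name, WT replicate 4 and DKO replicate 3 share Old (r = 0.006), and WT replicate 5 and DKO replicate 4 share New (r = 0.09). A block by replicate number does not follow these names. With a replicate block 109 promoter rows and 963 regions were called, 5 for total H3 and 1 net of it. Of the members it ended the call at the DKO-specific Asb4 region (0.89, edgeR adjusted p = 0.0758) and kept Mest and Klf14, leaving 2 of 13 regions and 0 promoter rows. Small regions are limited by depth: the DKO-specific Asb4 region rests on 6 to 27 counts per library.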
